A study of Mus musculus with 5 samples.

Results

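Spleen cells of C57/BL6 mice that had received live splenic cells of their own strain were compared with spleen cells of C57/BL6 mice that had received apoptotic ones. One library was labelled Live iso (B6) splenic cell infusion and the other Apoptotic iso (B6) splenic cell infusion, and both are called here the live and the apoptotic library. A barcode counted as a cell, whatever its type, if it had 1000 or more unique molecular identifiers (UMIs), 500 or more genes and mitochondrial UMIs of no more than 10%. This left 3685 cells of the live and 6380 of the apoptotic library, together 10065 of the 16271 cells that pass the same limits in the 5 libraries of the series. After removal of called doublets 3680 and 6263 cells were used. The other 3 libraries, a saline control and infusions of live or apoptotic Balbc (allogeneic) splenic cells, are given as a background for levels. The splenic origin shows in the classes found, among them marginal zone B-like cells with 7 of 10 fixed markers and red pulp macrophage-like cells with 14 of 14. All spleens were taken 48 h after intravenous infusion and digested with collagenase D and DNAse I. The suspension was enriched magnetically for CD45+ cells and, apart from that, for dendritic cells (DCs), and both fractions were mixed again in equal parts before 3' v3.1 libraries of 10x Genomics were made. How the donor cells were made apoptotic and how many mice stand behind a library are not given in the sources used here. Donor and host are both B6, so infused cells that were still in the spleen cannot be told apart from host cells. Each side has 1 library, so none of the differences below has a replicate check, no test was run, and every interval covers counting error only.

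Apoptotic cells that enter the blood are taken up in the spleen by marginal zone and red pulp macrophages and by cDC1, a DC type that presents antigen from ingested cells to CD8 T cells. Uptake of such cells is known to engage receptors for phosphatidylserine and its bridging proteins, to load the phagocyte with cholesterol that liver X receptors (LXR) sense, and to favour tolerance over immunity. Live cells of the same strain carry neither foreign antigen nor the surface signs of death, so the comparison asks what the death of the infused cells adds.

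The live library stood apart from the other 4 in its RNA content. Gm42418, a locus on mouse chromosome 17 (39846958 to 39848788, mm10) that holds ribosomal RNA sequence, had a median over cell classes of 77872 CPM there (a gene's UMIs after every sum of cells was brought to a common total). It was at 15393 CPM in the apoptotic library and at 16470, 16757 and 21718 CPM in the saline, live allogeneic and apoptotic allogeneic libraries. Gm42418, AY036118 and Lars2, called here the rRNA-linked genes, together took 9.24% of the UMIs of CD4 T-like cells in the live and 1.68% in the apoptotic library, and 2.77% against 0.356% in erythroid-like cells. Among barcodes under 100 UMIs, which hold free RNA, these genes took 21.7% of UMIs in the live library, 9.42% in the apoptotic, 7.80% in the saline and 9.89% in the live allogeneic one. Cytosolic ribosomal protein genes moved the other way, with 30.4% against 40.4% of UMIs in CD4 T-like cells. Cells of the live library were deeper, with a median of 3880 against 2267 UMIs and 1499.5 against 982 genes per cell, and 16.7% against 8.09% of all UMIs lay in barcodes under 100 UMIs. The 2 libraries shared 8 cell barcodes. Levels were therefore also computed without the rRNA-linked and most abundant genes in the total, and changes that depend on this are given beside the values.

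B cells and T cells made up less, and DCs and erythroid cells more, of the live library. B-like cells were 38.6% (95% Clopper-Pearson interval 37.0 to 40.2) of the cells in the live and 54.3% (53.1 to 55.6) in the apoptotic library, and T-like cells 14.8% (13.6 to 15.9) and 21.3% (20.3 to 22.4). In the saline, live allogeneic and apoptotic allogeneic libraries B-like cells were 35.7%, 43.0% and 32.8% and T-like cells 11.3%, 12.8% and 11.1%. The apoptotic isogeneic library thus had the highest share of both among the 5. DCs were 24.6% (23.2 to 26.0) of the live and 13.9% (13.1 to 14.8) of the apoptotic library, against 33.8%, 23.1% and 34.7% in the other 3. The part of the magnetic enrichment, and of the UMI minimum applied to libraries of unequal depth, in these shares was not tested. A minimum raised to 1750 UMIs for the live library alone was chosen after seeing the data. It kept the ratios of live to apoptotic shares of B-like, T-like, DC and erythroid-like cells within their main intervals. With at least 2000 UMIs per cell, B-like cells were 40.03% of the live and 36.3% of the apoptotic library, the reverse order, and DCs were 24.1% and 22.03%.

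Within the DCs, cDC1-like cells were 8.04% of the live and 3.50% of the apoptotic library, and cDC2-like cells, the type that primes CD4 T cells, 7.77% and 5.27%. Mature DC-like cells, marked by Ccr7 and Fscn1, were 2.72% and 1.41%, and plasmacytoid (pDC-like) cells, the main source of type I interferon, 3.23% and 1.964%. A cluster led by Cd209a, which held markers of cDC2 and of both monocyte types and got no name, was 2.83% and 1.79%. Follicular B-like cells were 25.7% and 38.4%, marginal zone B-like cells 6.96% and 10.3%, and transitional B-like cells, the recent immigrants from bone marrow, 5.87% and 5.64%. Transitional cells were thus the B cells whose share was about equal. Natural killer (NK)-like cells were 3.59% and 2.54%, and red pulp macrophage-like cells 1.55% and 1.36%. Erythroid-like cells, the nucleated precursors of red cells, were 8.72% (7.83 to 9.68) of the live and 1.36% (1.09 to 1.68) of the apoptotic library, and 2.80%, 4.14% and 4.97% of the other 3. Their median depth was 3605 UMIs in the live and 25893 in the apoptotic library, and 55.1% against 16.5% of them had fewer than 5000 UMIs. The live library thus held many shallow erythroid-like barcodes, whose part in the share was not tested.

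**Figure D1:**
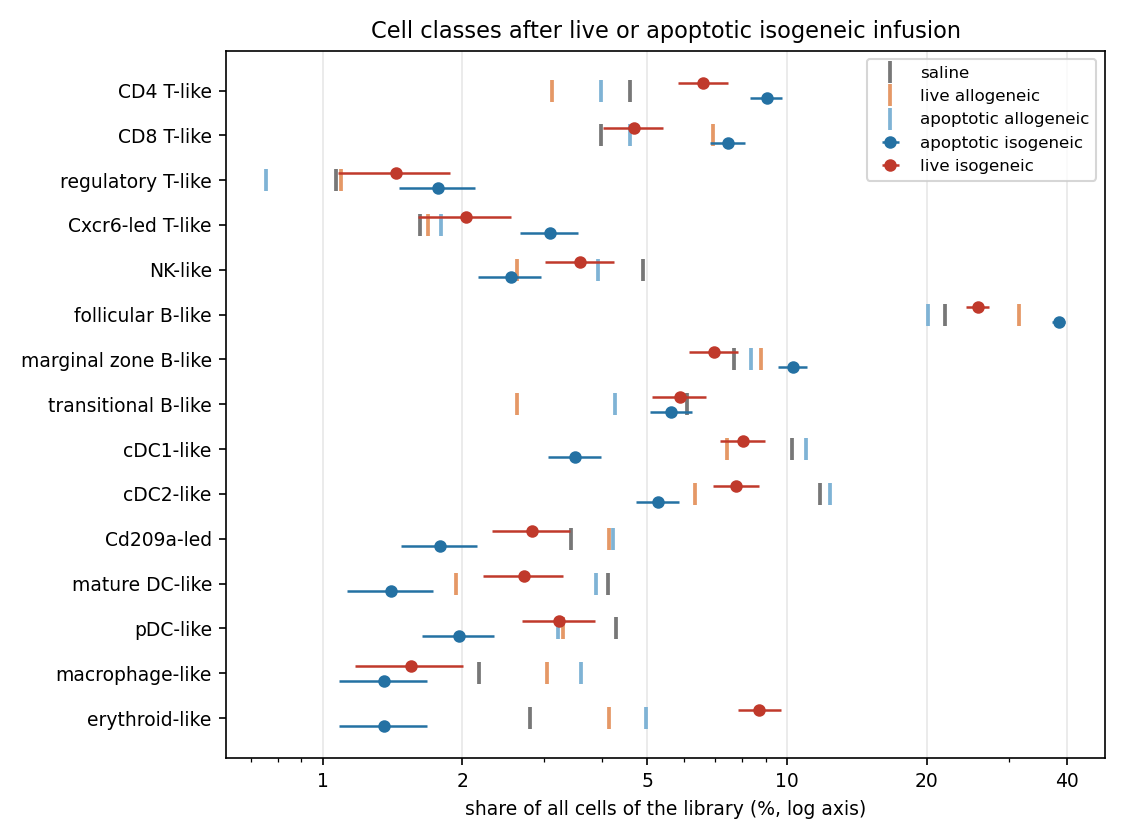
Share of all cells in each of the 15 compared cell classes (percent, log axis) in the live and apoptotic isogeneic libraries (points with 95% Clopper-Pearson intervals) and in the other 3 libraries (ticks). Erythroid-like cells lie farthest apart, at 8.72% against 1.36%, and transitional B-like cells lie closest, at 5.87% against 5.64%.

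Gene levels were compared within the 15 classes that had at least 50 cells and 100000 UMIs on each side. For each class the UMIs of all cells of a library were summed and scaled to CPM, and the log2 ratio of live to apoptotic was taken after adding 10 CPM, which understates the change of low genes. A gene with at least 100 UMIs in both sums together was measured, and is counted as higher or lower when the ratio passed 1.5-fold, a rule of size and not a test. Genes higher in the live library outnumbered lower ones in most classes. In CD4 T-like cells 205 of 2907 measured genes (7.05%) were higher and 49 (1.69%) lower, and in CD8 T-like cells 197 of 3150 (6.25%) and 73 (2.32%). Regulatory T-like cells had 25 of 561 (4.46%) higher and 49 (8.73%) lower, T cells led by the tissue homing receptor gene Cxcr6 97 of 1312 (7.39%) and 89 (6.78%), and NK-like cells 67 of 1249 (5.36%) and 72 (5.76%). These 3 smaller classes had about as many genes lower as higher, or more. Follicular B-like cells had 183 of 6500 (2.82%) higher and 100 (1.54%) lower, marginal zone B-like cells 126 of 4404 (2.86%) and 69 (1.57%), and transitional B-like cells 121 of 2176 (5.56%) and 99 (4.55%).

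Among DCs, cDC2-like cells had 262 of 4213 genes (6.22%) higher and 82 (1.95%) lower, against 147 of 4904 (3%) and 57 (1.16%) in cDC1-like cells. Cells led by Cd209a had 122 of 1874 (6.51%) higher and 62 (3.31%) lower, pDC-like cells 125 of 2107 (5.93%) and 49 (2.33%), and mature DC-like cells 101 of 1049 (9.63%) and 62 (5.91%). Erythroid-like cells had 264 of 6630 (3.98%) higher and 36 (0.543%) lower, and macrophage-like cells 48 of 640 (7.5%) and 76 (11.9%). The split between higher and lower depended on the scaling. In CD4 T-like cells 80.7% of the genes past the fold were higher, against 43.6% when ratios were centred on the median gene and 59.0% when rRNA-linked and abundant genes were left out of the total. The same 3 values were 73.0%, 50.8% and 59.9% in CD8 T-like, 76.2%, 58.0% and 75.3% in cDC2-like, 88.0%, 64.3% and 74.3% in erythroid-like, and 64.7%, 45.5% and 63.0% in follicular B-like cells. They were 52.2%, 50.5% and 41.1% in the T cells led by Cxcr6, 48.2%, 51.4% and 63.8% in NK-like, 38.7%, 59.5% and 38.7% in macrophage-like, and 64.6%, 50.6% and 66.4% in marginal zone B-like cells. In mature DC-like cells they were 62.0%, 59.4% and 77.6% and in regulatory T-like cells 33.8%, 64.5% and 32.9%. A surplus of higher genes thus depended on the scaling, while no gene named below as leading a class or as shared by classes changed its direction under another scaling.

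Genes that differed across many classes were found from the median log2 ratio over classes, for the 4446 genes measured in at least 4 of them. Of these, 89 (2%) were higher and 24 (0.54%) lower, and 78.8% of the genes past the fold were higher, against 65.7% with centring and 74.2% without rRNA-linked and abundant genes in the total. The highest were the replication-dependent histone gene Hist1h2ap, with a median log2 ratio of 2.95 in 5 classes, the predicted gene Gm10076, at 2.67 in all 15, and the rRNA-linked Gm42418, Lars2 and AY036118, at 2.34, 2.28 and 1.70 in all 15. After them came Fos and Zfp36 at 1.39 and 1.38 in 10 classes each, Tnfaip3 at 1.15 in 4, Snrpf, a core protein of the spliceosome, at 1.07 in 12, Ldb1, a cofactor of LIM-domain transcription factors, at 1.05 in 5, Zfp36l2 at 1.04 in 14 and Dusp1 at 1.03 in 5. Fos, Zfp36, Tnfaip3 and Dusp1 are textbook early response genes, of which the last 3 limit the response. Beside the 2% of all genes that were higher, these were 7 of 20 measured members of the immediate early list, 5 of 23 of the MHC class I list, 4 of 14 heat shock genes, 5 of 10 histone genes and 3 of 13 mitochondrially encoded genes.

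The lowest medians were those of the predicted genes Gm11808 (-1.71 in 14 classes), Gm2000 (-1.59 in 7) and Gm20186 (-1.09 in 9). Mir142hg, the host of a blood cell microRNA, was at -0.96 in 5 classes, Wdr89 at -0.96 in 10, the ribosomal protein retrogene Rps27rt at -0.92 in 13 and Cirbp, a cold-induced RNA-binding protein, at -0.86 in 10. Hcst, the signalling adaptor DAP10, was at -0.77 in 9, Gm12840 at -0.74 in 4, H2-Oa, a subunit of the brake on class II peptide loading, at -0.71 in 8, the chemokine gene Ccl5 at -0.70 in 8 and 4930581F22Rik at -0.67 in 5. Of the 24 lower genes 5 encode ribosomal proteins, beside 83 of all 4446. By their names 8 of the 24 are predicted genes, clones or gene copies, beside 73 of the 4446 and 8 of the 89 higher genes. Among these 8, Gm20186 and Gm12840 are annotated as lincRNA and 4930581F22Rik as a processed transcript. Where a gene is a near-identical copy of another, reads can be split between them. Every gene named as highest or lowest had the same direction in free RNA, from a log2 ratio of 3.38 for Hist1h2ap to -2.13 for Gm11808. The part of free RNA in these medians was not tested. The live library was the extreme of all 5 libraries for 73 of the 89 higher and 17 of the 24 lower genes, and the apoptotic isogeneic library the opposite extreme for 34 and 13. The genes were chosen by the ratio of these 2 libraries, which favours such extremes. The share over all measured genes was not computed. Among classes with at least 20 cells in every library, the live library was the lowest of 5 for Gm11808 in 13 of 13, Gm2000 in 7 of 7 and Gm20186 in 9 of 9. The apoptotic library was the highest of 5 for Wdr89 in 10 of 10, Rps27rt in 12 of 12, Cirbp in 8 of 10, Hcst in 7 of 8 and Mir142hg in 4 of 5, and the live one the lowest for these in 2, 0, 4, 6 and 3.

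**Figure D2:**
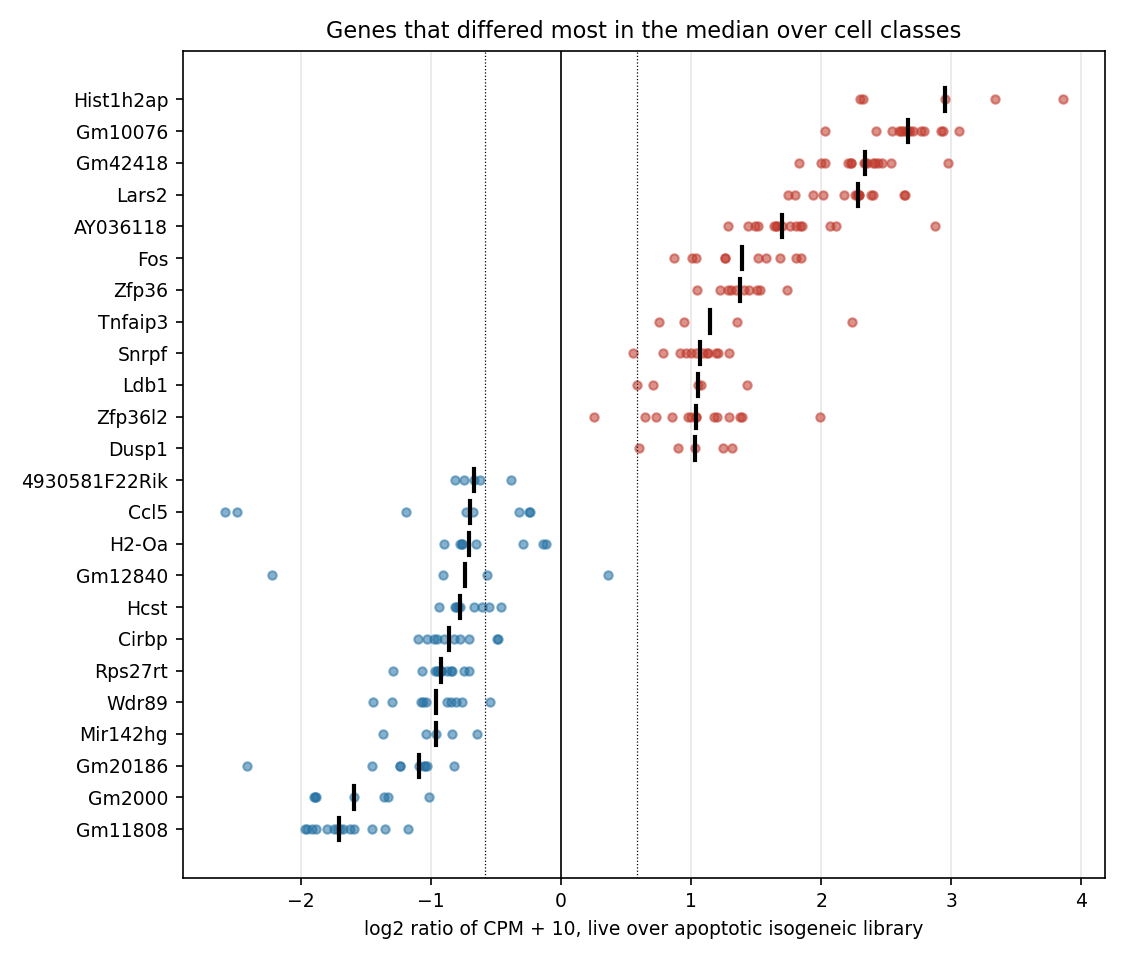
Log2 ratio of live to apoptotic (CPM + 10) for the 12 highest and 12 lowest genes by their median over classes, with 1 point per class in which the gene was measured, a black bar at the median and dotted lines at 1.5-fold. Hist1h2ap has the highest median (2.95) and Gm11808 the lowest (-1.71).

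Immediate early genes, which a cell transcribes within minutes of a stimulus and without new protein, stood higher in the live library in every class. Their list, with AP-1 factors, zinc finger mRNA decay factors and phosphatases, had a positive median in 15 of 15 classes, from 0.18 in macrophage-like cells to 0.72 in cells led by Cd209a. The median over classes was 0.42, and 0.39 with centring, while the medians over all measured genes ran from -0.11 to 0.11. Over all classes 92 of 235 measured values of its members (39.1%) were higher and 2 were lower, where 2.82% to 9.63% of all measured genes were higher in a class and 0.543% to 11.9% lower. With each class weighted by the number of its measured members, 5.38% of all genes were higher and 3.22% lower, and shares of all genes given beside other lists are weighted in the same way. The median was not the same in every cluster of a class. Follicular B-like cells had 0.09 in a cluster of 179 live and 1315 apoptotic cells, with 5 of 17 members higher and 2 lower, and 0.49 in one of 689 and 925 cells, with 10 of 20 higher. In the shallow cluster of cDC1-like cells 1 member could be measured, at -0.29.

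The promoters of a few early response and heat shock genes hold core or response elements known from such genes. Bases upstream of the RefSeq start are printed 5′ to 3′ on the gene's strand for GRCm38.p6, with the named motif in capitals. They are Fos (chr12:85473640-85473889, plus strand), whose TATAAA box begins 33 bases before the start, Btg2 (chr1:134079156-134079405, minus strand), with the palindromic cAMP response element TGACGTCA 166 bases before it, and the heat shock chaperone gene Hspa1a (chr17:34972157-34972406, minus strand), with 1 match of the heat shock unit GAANNTTC 104 bases before it.
Fos: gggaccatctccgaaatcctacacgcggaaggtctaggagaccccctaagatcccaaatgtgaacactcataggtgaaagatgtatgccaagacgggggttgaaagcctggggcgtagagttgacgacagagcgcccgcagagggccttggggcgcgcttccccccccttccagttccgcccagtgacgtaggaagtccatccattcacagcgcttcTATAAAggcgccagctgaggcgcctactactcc
Btg2: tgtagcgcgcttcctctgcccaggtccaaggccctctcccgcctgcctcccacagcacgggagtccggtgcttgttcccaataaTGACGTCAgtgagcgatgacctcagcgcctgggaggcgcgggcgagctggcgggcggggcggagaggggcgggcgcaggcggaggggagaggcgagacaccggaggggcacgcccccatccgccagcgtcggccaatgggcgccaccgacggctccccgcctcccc
Hspa1a: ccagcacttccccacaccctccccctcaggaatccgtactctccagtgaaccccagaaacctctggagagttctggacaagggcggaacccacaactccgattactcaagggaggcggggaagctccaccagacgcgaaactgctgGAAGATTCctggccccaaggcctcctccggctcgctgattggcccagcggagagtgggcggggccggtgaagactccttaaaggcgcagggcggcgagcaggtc
Searched on both strands of the 250 bases before any listed start, TGACGTCA stood in 4 of the 28 immediate early genes found in the table (14.3%: Btg2, Dusp1, Ppp1r15a and Maff) and in 1.77% of all 27025 genes. TATAAA, a core element, stood in 5 of 28 (17.9%) against 14.3% of all genes, and the AP-1 site TGACTCA in none of the 28 against 5.16%. The CArG box, another element searched for, stood in 3 of 28 (10.7%: Egr2, Zfp36 and Dusp5) against 1.62% of all genes. GAANNTTC stood in 6 of 16 heat shock genes (37.5%: Hspa1a, Hspa1b, Dnaja1, Hspb1, Hspe1 and Hspd1) against 7.73% of all genes. A match is a description of the letters and says nothing of binding in these cells.

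Fos, the partner of Jun in AP-1, was at 283 against 73.97 CPM in cDC2-like cells, 3.83-fold (3.07 to 4.81) higher by the ratio of CPM with its 95% exact Poisson interval. In follicular B-like cells it was at 119 against 30.02 CPM, 3.95-fold (3.23 to 4.86), and at 24.6, 45.3 and 37.5 CPM in the saline, live allogeneic and apoptotic allogeneic libraries. In all 10 classes where it could be set beside the other libraries, Fos was highest in the live isogeneic one. Fosb was higher in 4 of 9 classes and Junb in 11 of 14, with 668 against 311 CPM in the T cells led by Cxcr6. By contrast Jun was past the fold in 0 of 14 classes, Ier2 in 0 of 11 and Egr1 in 1 of 7, with medians of 0.23, -0.06 and 0.09. The early response was thus uneven between factors.

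Some of the factors that are known to limit the response were past the fold in most classes and others in few. Zfp36 (tristetraprolin, chromosome 7, 28376784 to 28380253), which destabilises AU-rich messages of cytokines, was higher in 10 of 10 classes, at 472 against 157 CPM in cDC2-like cells, 3.003-fold (2.58 to 3.51), and at 416 against 118 CPM in mature DC-like cells. Zfp36l2 was higher in 13 of 14 classes and farthest apart in transitional B-like cells, at 475 against 112 CPM, 4.24-fold (3.32 to 5.46), with 114, 69.4 and 153 CPM in the other 3 libraries. Btg2, an antiproliferative factor of the same response, was higher in 10 of 14 classes, at 564 against 279 CPM in cDC1-like cells. Zfp36l1, the third of the decay factors, was higher in 3 of 15. The phosphatase gene Dusp1, which switches off MAP kinases, was higher in 5 of 5. Tsc22d3, which glucocorticoids induce and which is also a leucine zipper protein, was higher in 5 of 9 classes, at 433 against 203 CPM in follicular B-like cells, and highest of all 5 libraries in 9 of 9.

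Targets of NF-kappaB showed smaller differences. Their list had a median of 0.28 over 13 classes, with 17 of 163 member values (10.4%) higher and 3 (1.84%) lower, beside 5.24% and 2.63% of all genes. Tnfaip3, the deubiquitinase A20 that restrains this pathway, was at 95.5 against 12.4 CPM in CD4 T-like cells, 7.69-fold (4.56 to 13.7), and at 92.99 against 30.4 CPM in CD8 T-like cells. Nfkbia, its inhibitor protein, was higher in 5 of 14 classes. The chemokine gene Ccl4 was at 736 against 258 CPM in NK-like and 479 against 194 CPM in pDC-like cells.

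Chaperones of the heat shock response also stood higher across the classes. The list median was positive in 15 of 15 classes, from 0.28 in regulatory T-like to 0.63 in CD4 T-like cells, with 50 of 176 member values (28.4%) higher and 0 lower, beside 5.27% and 3.20% of all genes. The median over classes was 0.42, and it was 0.40 under both other scalings. Hspa8, the constitutive cytosolic Hsp70, was higher in 9 of 15 classes, at 908 against 489.9 CPM in follicular B-like and 936 against 499.6 CPM in NK-like cells. Its cochaperone gene Dnaja1 was higher in 10 of 15, at 529 against 247 CPM in CD4 T-like cells. Hsph1, the nucleotide exchange factor of Hsp70, was farthest apart in follicular B-like cells, at 78.8 against 22.5 CPM, 3.51-fold (2.76 to 4.48). The inducible Hspa1a, whose promoter is printed above and whose reads may be shared with its copy Hspa1b, was higher in 3 of 3 classes, at 99.4 against 50.2 CPM in cells led by Cd209a. The mitochondrial cochaperone gene Hspe1 was higher in 0 of 15.

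The same genes were read in single cells after each was thinned to 1000 UMIs. At least 3 UMIs of heat shock genes were then found in 80.8% of follicular B-like cells of the live and 61.9% of the apoptotic library, in 86.4% and 69.7% of cDC2-like cells, and in 87.2% and 70.7% of CD8 T-like cells. For immediate early genes the values were 88.0% and 81.5%, 78.0% and 75.2%, and 86.0% and 74.3% in the same classes, and 48.3% and 53.4% in cDC1-like cells. The shares differed more for chaperones than for early genes in these classes, and early genes were found in fewer cDC1-like cells of the live library. A shallow cluster held 42.6% of the live and 16.4% of the apoptotic cDC1-like cells. Only 1 early gene could be measured in it. The largest cDC1-like cluster, of 148 live and 171 apoptotic cells, had an early list median of 0.48. There 9 of 23 early genes passed the fold upward and 0 downward. The part of the shallow cluster in the lower cDC1-like share was not tested. The unfolded protein response, the stress programme of the endoplasmic reticulum, had a list median of 0.25 and 19 of 162 member values (11.7%) higher, beside 5.08% of all genes. Hspa5, its sentinel chaperone BiP, was at 582 against 339 CPM in cells led by Cd209a. Chaperones were higher in free RNA too, as 11 of 18 of them passed the fold among barcodes under 100 UMIs with a median of 0.67, while 9 of 27 immediate early genes did with a median of 0.30. The medians of the unfolded protein response and MHC class I lists were 0.56 and 0.36 there, and 7.54% of the 7099 genes measured in free RNA were higher. The part of free RNA, and of stress during digestion, in these differences was not tested.

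MHC class I heavy and light chains, which show peptides to CD8 T cells, were split within the family. B2m, the light chain of all class I molecules, was higher in 14 of 15 classes with a median log2 ratio of 0.73, and the heavy chain gene H2-D1 in 13 of 15 with 0.71. In mature DC-like cells B2m was at 4782 against 2752 CPM, 1.74-fold (1.60 to 1.88), and in NK-like cells at 2079 against 1043 CPM. The other classical heavy chain of the B6 haplotype, H2-K1, was past the fold in 0 of 15 classes, with a range of -0.26 to 0.32. The non-classical H2-T23 (Qa-1), a ligand of inhibitory NK receptors, was higher in 10 of 12, at 558 against 236 CPM in pDC-like cells. H2-M3 was higher in 4 of 5 classes. Class I genes are near-identical copies of each other, so reads of the heavy chains are uncertain, which does not hold for B2m. In free RNA B2m was also higher, at 1508 against 790 CPM, as was H2-D1 at 763 against 487 CPM. H2-K1 was at 1164 against 1189 CPM there. The part of free RNA in these class I values was not tested.

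Peptide supply was split in the same manner. Tap2, one chain of the peptide transporter, was higher in 7 of 8 classes, at 153 against 55.3 CPM in mature DC-like and 96.7 against 37.3 CPM in cDC1-like cells. Tap1, the other chain, was past the fold in 0 of 11, with a median of -0.17. The immunoproteasome subunit gene Psmb9 was higher in 5 of 12 classes, while Psmb8 was in 0 of 15 and Psmb10 in 0 of 13. Over the whole class I list 67 of 269 member values (24.9%) were higher and 1 was lower, beside 5.50% and 3.34% of all genes, and the list median was 0.16. In all 14 classes with at least 20 cells in every library, both live libraries, isogeneic and allogeneic, had more B2m and more H2-D1 than any of the other 3, and so did 12 of 12 classes for H2-T23, 11 of 12 for Psmb9 and 7 of 8 for Tap2. For H2-K1 this held in 2 of 14, for Fos in 4 of 10 and for Hspa8 in 12 of 14. The genes in these counts were picked, and no share over all genes was computed beside them.

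**Figure D3:**
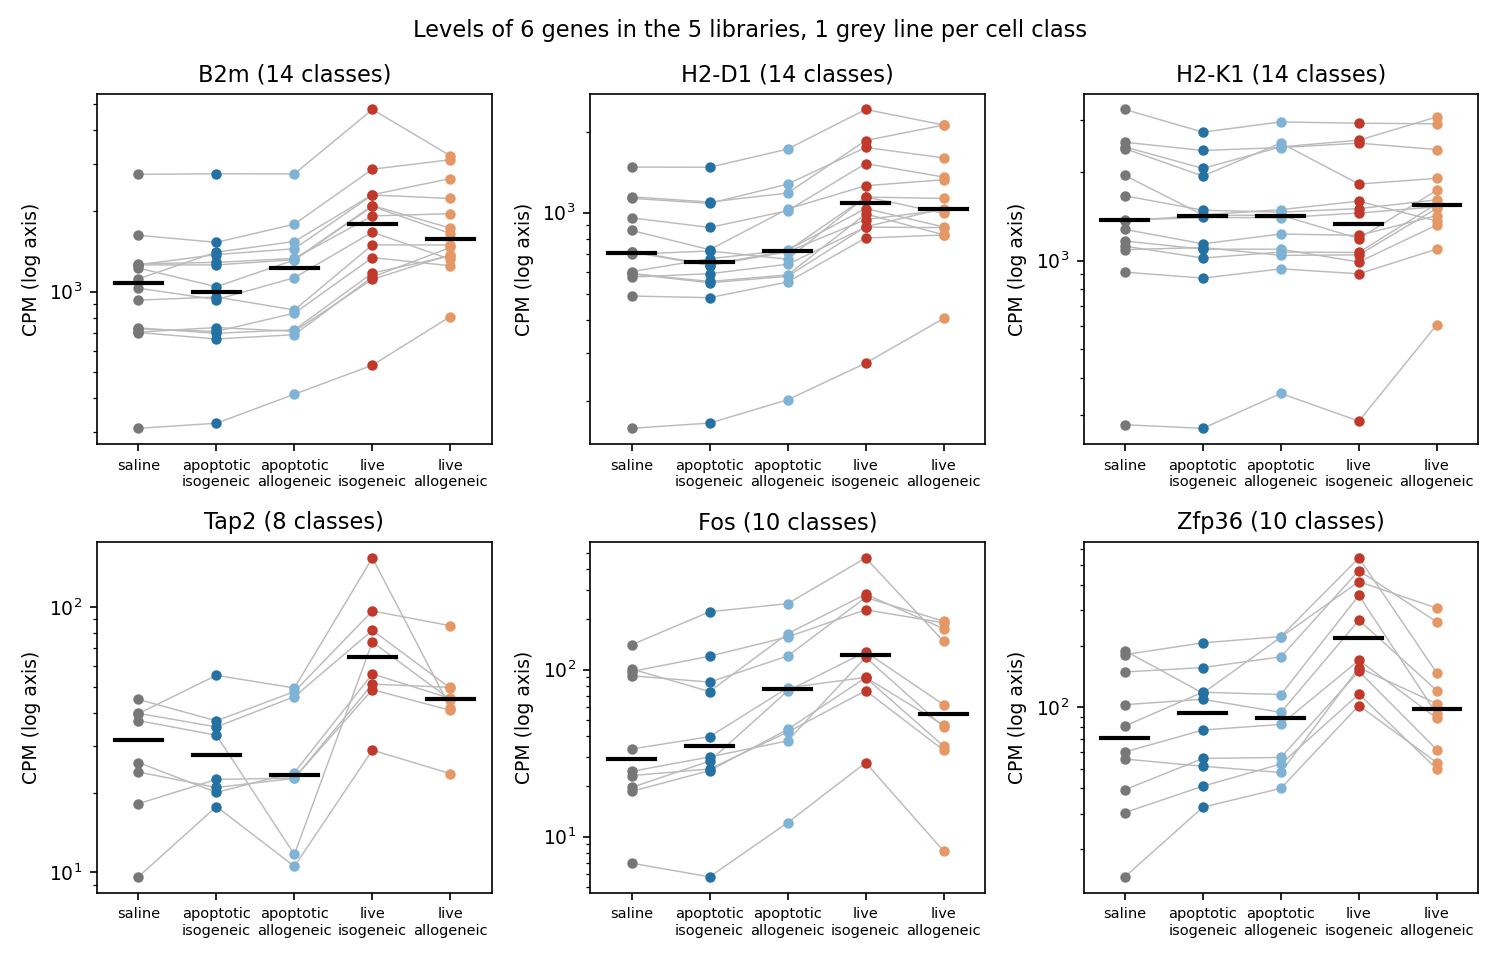
Levels of B2m, H2-D1, H2-K1, Tap2, Fos and Zfp36 (CPM, log axis) in the 5 libraries, with 1 point and grey line per cell class and a black bar at the median over classes. B2m and H2-D1 lie higher in both live libraries than in the other 3 in all 14 classes, while Fos lies highest in the live isogeneic library in all 10.

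Interferon-stimulated genes as a whole did not share this difference. The type I interferon list had a median of 0.04 over classes, with 11 of 224 member values (4.91%) higher and 3 (1.34%) lower, beside 5.14% and 2.76% of all genes. The median of that list was 0.31 in pDC-like cells, where 4 of 15 members were higher. There Slfn5, a growth regulator of the Schlafen family, was at 182 against 75.1 CPM and at 93.3, 345 and 106 CPM in the saline, live allogeneic and apoptotic allogeneic libraries, and Isg15, a ubiquitin-like modifier, at 116 against 73.3 CPM. Interferon-gamma targets had a list median of 0.20, with 10 of 86 values (11.6%) higher and 3 (3.49%) lower, beside 5.26% and 3.03% of all genes. Iigp1, an interferon-inducible GTPase, was at 115 against 29.3 CPM in pDC-like cells, 3.92-fold (2.30 to 7.14), and Cxcl10, a ligand of the receptor CXCR3, at 159 against 50.2 CPM in cells led by Cd209a. In macrophage-like cells Cxcl9 and Serpina3g had the other direction, at 106 against 336 and 62.5 against 281 CPM. Cxcl9 was found in only 8.77% of live and 5.88% of apoptotic macrophage-like cells. Few cells thus carry its ratio, and the share of cells with it was not lower in the live library. For Serpina3g these shares were 12.3% and 34.1%.

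Lists tied to the clearance of dying cells and to tolerance had medians near 0. Members of the apoptotic cell uptake list had a median of 0.04 over 15 classes, and -0.02 with centring. Of 96 values 7 (7.29%) were higher and 1 (1.04%) was lower, beside 5.48% and 3.81% of all genes. Complement C1q, a bridge to dying cells, stood out in cells led by Cd209a. There C1qa was at 216 against 75.3 CPM and C1qb at 198 against 77.1 CPM. Macrophage-like cells had the other direction short of the fold, with C1qa at 1799 against 2396 and C1qb at 1074 against 1401 CPM. The part of RNA from other cells in the C1q values of Cd209a-led cells was not tested. The scavenger receptor gene Lrp1 was at 431 against 191 CPM in macrophage-like cells. The LXR and cholesterol efflux list had a median of 0.01, and -0.03 with centring, with 8 of 91 values (8.79%) higher and 4 (4.40%) lower, beside 4.96% and 2.95% of all genes. Nr1h3, which encodes LXR alpha, was at 237 against 378 CPM in macrophage-like cells, and Apoe, a lipid carrier, was at 136 against 81.99 CPM in cDC1-like and 68.3 against 108 CPM in pDC-like cells. Cholesterol synthesis was at 0.00 over 6 classes, with Idi1 and Cyp51 of mature DC-like cells at 160.3 against 89.9 and 160.3 against 72.6 CPM. The tolerance list had a median of 0.02, with 5 of 83 values (6.02%) higher and 5 lower, beside 5.16% and 2.76% of all genes. Its galectin Lgals1, an inhibitor of effector T cells, was lower in regulatory T-like cells, at 283 against 673 CPM, 0.420-fold (0.309 to 0.565), and in NK-like cells, at 1190.4 against 1919.8 CPM.

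DC maturation and class II presentation did not stand higher in the live library. The maturation list had 1 value higher and 7 lower of 89 (7.87% lower), with a median of -0.03, beside 5.37% of all genes higher and 2.74% lower. In mature DC-like cells Cd83, which stabilises surface MHC class II, was at 551 against 843 CPM, the costimulatory ligand gene Icosl at 399.96 against 615 CPM and the chemokine gene Ccl22, which attracts regulatory T cells, at 205 against 363 CPM, all lower in the live library. Class II genes had a median of -0.15 over 12 classes, and -0.14 and -0.18 under the other scalings. H2-Oa was lower in 5 of 8, at 312 against 537 CPM in cDC2-like cells. In 2 T cell classes class II genes were far higher instead. Cd74, the invariant chain, was at 772 against 126 CPM in T cells led by Cxcr6 and at 340.3 against 130.3 CPM in CD8 T-like cells, with H2-Aa at 344 against 64.8 and 128 against 45.3 CPM. T cells of mice make little class II. In CD8 T-like cells the summed B cell markers were at 1166 against 485 CPM and all 5 that could be measured of 15 were higher. In the T cells led by Cxcr6 the B cell markers were at 398 against 416 CPM, with 1 of 15 measured and 0 higher, and the cDC1 markers at 276 against 162 CPM. The part of doublets and free RNA in these values was not tested.

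**Figure D4:**
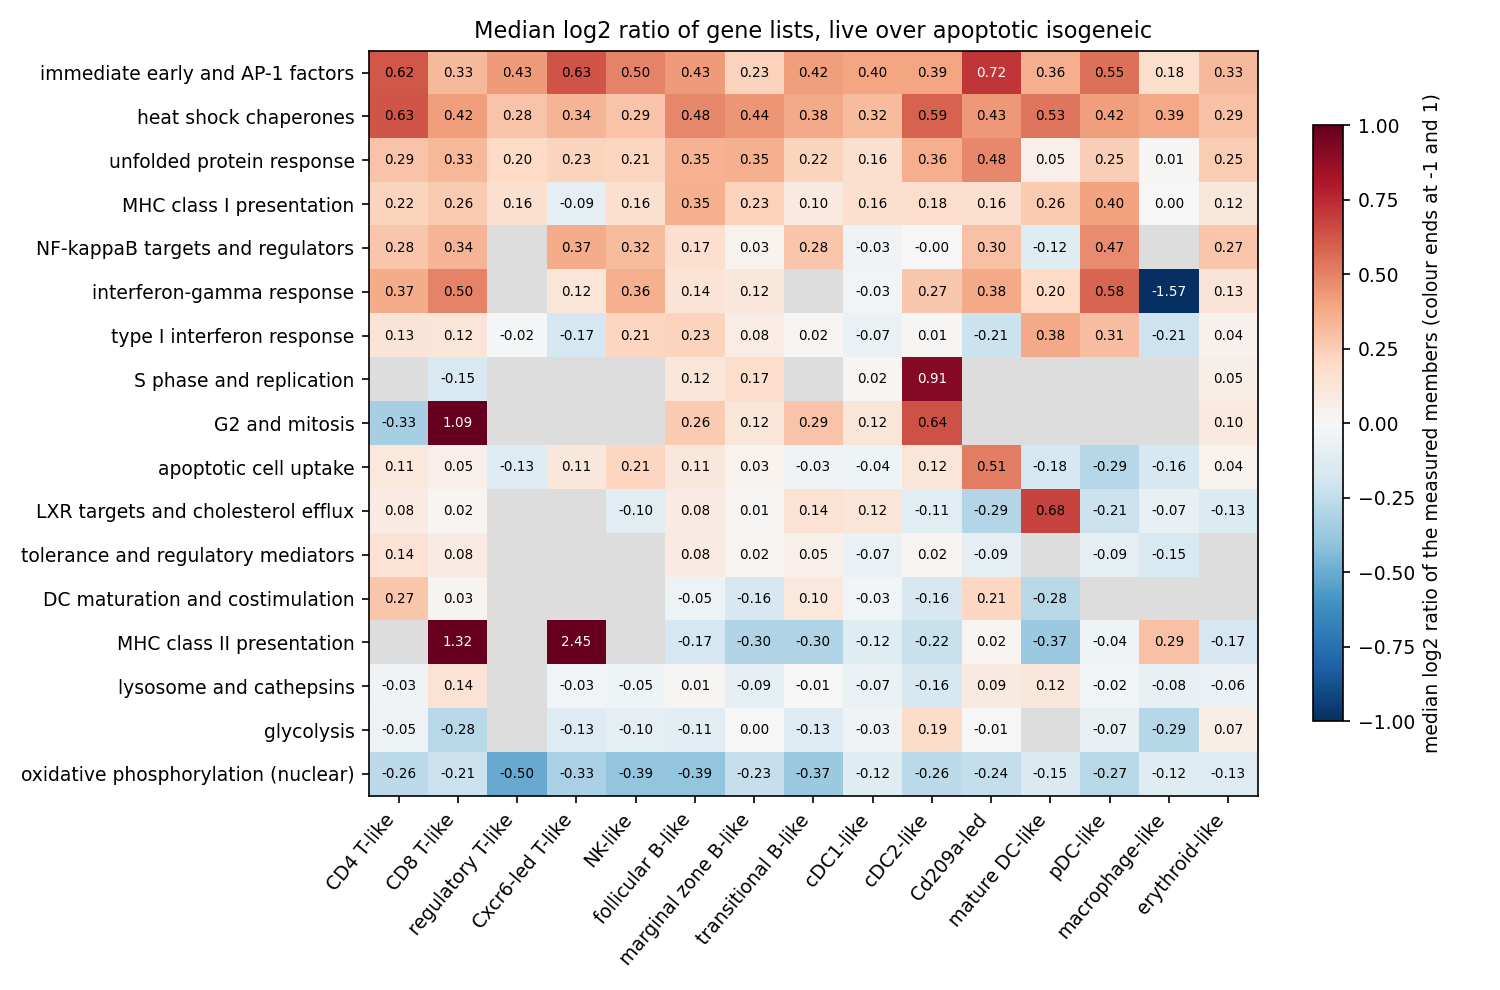
Median log2 ratio of live to apoptotic of the measured members of each gene list in the 15 classes (red higher and blue lower in the live library, grey where fewer than 3 members were measured). The immediate early and heat shock lists are positive in all 15 classes, and nuclear oxidative phosphorylation is negative in all 15.

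Nuclear genes of oxidative phosphorylation, which encode most subunits of the respiratory chain, stood lower in the live library in all 15 classes. The list median was -0.26, from -0.50 in regulatory T-like to -0.12 in cDC1-like cells, and -0.29 with centring. Of 544 values 40 (7.35%) were lower and 5 (0.919%) higher, beside 3.56% and 5.51% of all genes, so most members moved by less than 1.5-fold. Cox5b, a subunit of cytochrome oxidase, was at 196 against 412 CPM in regulatory T-like cells and 205 against 382 CPM in transitional B-like cells. Ndufv3, a subunit of complex I, was lower in 5 of 12 classes, while Ndufa1, another, was higher in 4 of 12, at 149 against 80.7 CPM in CD8 T-like cells. Of the mitochondrially encoded genes 41 of 184 values (22.3%) were higher, beside 5.57% of all genes, led by the low-abundance mt-Atp8 and mt-Nd4l, at 301 against 90.1 CPM and 509 against 208 CPM in marginal zone B-like cells. Both genes overlap a neighbour on the mitochondrial chromosome, so their reads are uncertain.

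Short transcripts as a group stood lower, and respiratory chain genes are short. Over the 4384 genes with a transcript length the median ratio was -0.26 for the 338 genes of 500 to 1000 bases, -0.06 for 913 of 1000 to 2000, 0.08 for 1486 of 2000 to 4000 and 0.13 for 1613 above 4000. In CD4 T-like cells genes up to 1000 bases were at -0.27 and genes above 4000 at 0.22. In mature DC-like cells the values were -0.03 and -0.04, and there 2 of 80 ribosomal protein genes were higher and 0 lower, so this class lacked the pattern. Ribosomal protein genes had medians of -0.53 to -0.18 in the other 14 classes, lowest in macrophage-like cells with 32 of 80 lower. The part of transcript length in the difference of respiratory chain genes was not tested.

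Genes of DNA replication stood higher in cDC2-like cells of the live library. Of 15 measured members of the S phase list 11 were higher and 0 lower, with a median log2 ratio of 0.91, and 0.84 and 0.94 under the other scalings. All 15 had a higher CPM in the live library. The replicative helicase subunit genes Mcm3 and Mcm4 were at 144 against 53.2 CPM, 2.70-fold (2.07 to 3.58), and at 87.7 against 31.6 CPM, 2.78-fold (1.96 to 4.01). Mcm3 was at 66.9, 117 and 69.04 CPM in the saline, live allogeneic and apoptotic allogeneic libraries. Pcna, the sliding clamp of DNA polymerase, was at 171 against 70.1 CPM and at 73.8, 138 and 94.6 CPM in those 3. For both genes the live isogeneic library was thus the highest of 5, followed by the live allogeneic one. Uhrf1, which carries DNA methylation through replication, was at 71.05 against 25.4 CPM, and the nuclear lamin gene Lmnb1 at 113 against 40.8 CPM. Mki67 and Top2a of the later cycle were at 78.6 against 47.00 and 68.9 against 38.5 CPM.

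In single cDC2-like cells thinned to 1000 UMIs, at least 3 UMIs of S phase or mitotic genes were found in 18.5% (14.2 to 23.5) of 286 cells of the live and in 10.0% (6.98 to 13.8) of 330 of the apoptotic library. The shares were 12.1%, 29.3% and 12.2% in the saline, live allogeneic and apoptotic allogeneic libraries, and without thinning 72.7% and 47.9% in the live and apoptotic ones. In cDC1-like cells they were 22.97% and 20.1%, and the S phase list was at 0.02 with 1 of 18 higher. The 2 DC types thus differed in this list, a difference that was not tested. An unnamed cluster of 49 live and 21 apoptotic cells held 6 of 15 cDC2 markers, with Nusap1 and Pclaf among its leading genes. It also held 9 of 12 stromal markers and was outside the cDC2-like class. With finer clustering a cDC2-like cluster led by Pclaf and Nusap1 held 55 and 27 cells. The cDC1-like class kept a cluster of 22 and 12 cells with Pclaf among its leading genes, so the 2 classes are not like sets. S phase genes were also higher in free RNA, 13 of 23 with a median of 0.61. Of the cDC2-like cells 43 of the live and 8 of the apoptotic library belonged to a cluster of shallow cells. In the other cluster alone, with 243 and 322 cells, 12 of 15 members were higher with a median of 0.93. Mitotic genes in CD8 T-like cells (7 of 9 higher, median 1.09) rested on a cluster of 10 live and 9 apoptotic cells, and in the remaining 162 and 458 cells 2 members could be measured, with a median of 0.06.

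**Figure D5:**
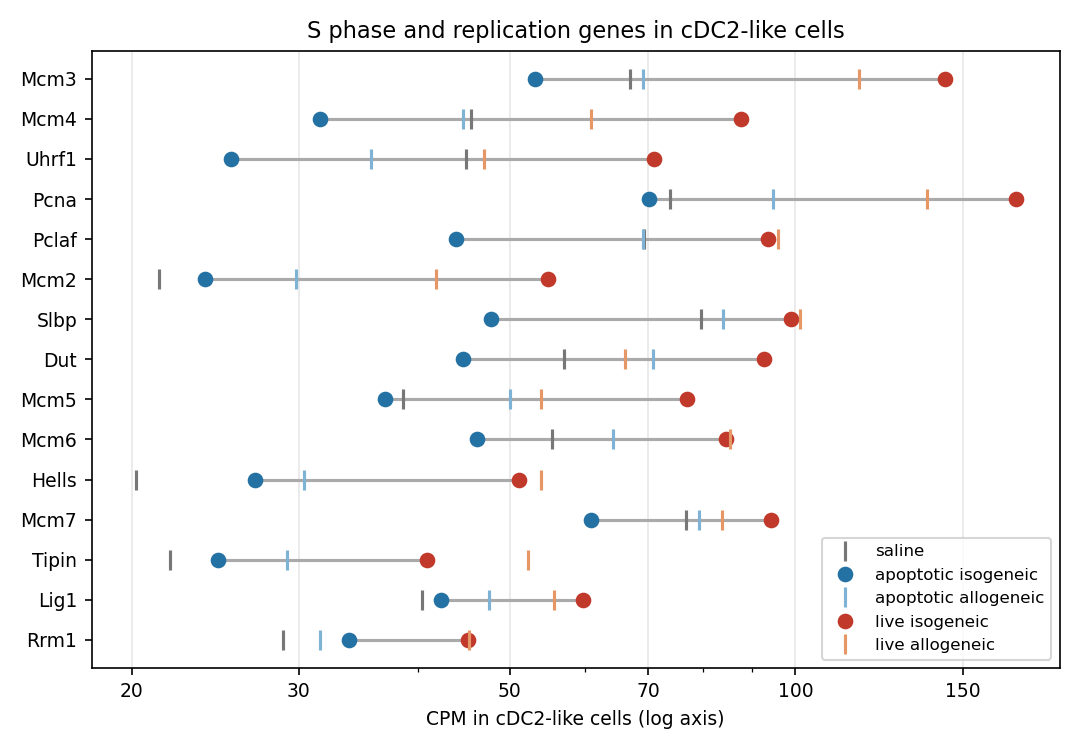
Levels of 15 S phase genes (CPM, log axis) in cDC2-like cells of the live and apoptotic isogeneic libraries (points joined by a line) and of the other 3 libraries (ticks). All 15 lie higher in the live than in the apoptotic isogeneic library, from Mcm3 with the largest log2 ratio (1.28) to Rrm1 with the smallest (0.33).

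Each DC class also had genes that differed more there than elsewhere, by the ratio minus its median over the other classes. In cDC2-like cells Slamf6, a homophilic receptor of lymphocytes and some DCs, was lower at 35.5 against 90.2 CPM, 0.394-fold (0.287 to 0.537), as was the circadian factor gene Clock at 24.8 against 46.2 CPM. Cells led by Cd209a had more of the tetraspanin gene Cd9, at 113 against 30.5 CPM, 3.72-fold (2.21 to 6.64), and of Adam23 and the interleukin-10 receptor chain gene Il10rb, at 118 against 51.97 and 93.6 against 39.4 CPM, and less of Ahnak, at 269 against 507 CPM. In cDC1-like cells Egr3 and the antioxidant regulator gene Nfe2l2 were higher, at 56.98 against 33.8 and 39.7 against 21.8 CPM, and Ogt, which adds O-GlcNAc to proteins, was lower at 99.4 against 167 CPM. Of the cDC1-like cells, 42.6% in the live and 16.4% in the apoptotic library lay in a cluster of shallow cells. In pDC-like cells the transcription factor gene Etv6 was at 117 against 43.99 CPM and the apoptosis inhibitor gene Birc3 at 98.2 against 47.7 CPM. The chemokine receptor gene Ccr2 was lower in pDC-like cells, at 113 against 236 CPM, with 160.1, 26.7 and 81.1 CPM in the other 3 libraries. Mature DC-like cells had more of the mitochondrial translocator gene Tspo, at 524 against 235 CPM, and of the peroxiredoxin gene Prdx1, at 288 against 156 CPM. They had less of Dennd4a and Elk3, at 193 against 366 and 90.1 against 197 CPM. With finer clustering a shallower mature DC-like cluster held 22 live and 3 apoptotic cells, beside 77 and 90 in the other. The part of the shallower cluster in these values was not tested.

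Among T cells, Copb1 of the vesicle coat and Arap2 were higher in CD4 T-like cells, at 90.6 against 38.01 and 133 against 77.5 CPM. The calcium channel gene Itpr1 and Notch1 were lower, at 26.6 against 57.02 and 47.3 against 76.03 CPM. CD8 T-like cells had more Cks2 and Cenpa, both genes of mitosis, at 83.8 against 27.3 and 85.8 against 33.5 CPM. Cks2 was found in 12.8% of live and 4.50% of apoptotic CD8 T-like cells, and Cenpa in 19.2% and 8.78%. In thinned cells these shares were 1.16% and 1.07% for Cks2, and 5.23% and 3.21% for Cenpa. A cluster of 10 live and 9 apoptotic cells, on which the mitotic list rested, made up 5.81% and 1.93% of the class. Its part in the Cks2 and Cenpa ratios was not tested. CD8 T-like cells also had less C1qbp, a mitochondrial matrix protein, at 59.3 against 128 CPM. The protease gene Gzma of killer cells was at 119 against 3.10 CPM there, 38.2-fold (15.9 to 119.9), with 66.98, 255 and 1.998 CPM in the other 3 libraries. Its UMIs came from 2.91% of live and 1.07% of apoptotic CD8 T-like cells, so few cells carry this ratio. T cells led by Cxcr6 had more S100a4, S100a6 and Vim, all features of effector and memory cells, at 807 against 432, 791 against 524 and 289 against 119 CPM. They had less of the T cell receptor kinase gene Zap70, at 81.8 against 166 CPM, and less Ccl5, at 4695 against 7490.1 CPM. Regulatory T-like cells had more of the transcription factor gene Maf, at 593 against 373 CPM, and less of the splicing gene Snrpd2, at 114 against 303 CPM.

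Ccl5, the chemokine RANTES, was lower wherever it passed the fold. NK-like cells, which had its highest level, were at 10595 against 17560.3 CPM, 0.603-fold (0.581 to 0.626), and at 16552, 13639.8 and 15459.6 CPM in the saline, live allogeneic and apoptotic allogeneic libraries. It was at 494 against 1141 CPM in cDC2-like cells and at 149 against 885 CPM in cells led by Cd209a, where T cell markers summed to 31.2 against 244 CPM. The apoptotic library had the highest Ccl5 of the 5 in 7 of 8 classes, while the live isogeneic one had the lowest in 3 of 8, NK-like cells among them. NK-like cells had more of the ubiquitin ligase gene Huwe1, the deubiquitinase gene Cyld and the peptide loading gene Tapbp, at 173 against 69.7, 175 against 87.1 and 233 against 131 CPM, and less of the proteasome subunit gene Psma4, at 85.5 against 180.1 CPM.

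Among B cells, follicular B-like cells had more Fosb and Ppp1r15a, which ends the block of translation under stress, at 157 against 68.7 and 78.1 against 38.9 CPM, and Myc, the growth regulator, was at 37.5 against 11.6 CPM there and at 95.1 against 41.4 CPM in marginal zone B-like cells. The polymerase II subunit gene Polr2i was lower in follicular B-like cells, at 33.7 against 66.05 CPM. Of these cells 18.9% in the live and 54.7% in the apoptotic library came from 1 of their 3 clusters. The clusters thus fill this class in unlike proportions. Whether they are subsets of cells or follow the library was not tested. Marginal zone B-like cells had more Cdk6, a kinase of the G1 phase, and Srm, a polyamine synthase gene, at 57.3 against 33.6 and 74.3 against 46.1 CPM, and less Egr3 and Kmo, at 62.6 against 109 and 30.6 against 55.6 CPM. Transitional B-like cells had more of the kinase gene Prkcd, which limits autoreactive B cells, at 189 against 76.9 CPM, 2.45-fold (1.78 to 3.41), and of Sdcbp, at 128 against 37.8 CPM. Their Ly6a (Sca-1), an interferon-induced surface protein, was lower at 90.1 against 219.98 CPM, with 184, 478 and 149 CPM in the other 3 libraries. Nme2, a nucleoside diphosphate kinase, was lower in 7 of 15 classes, at 356 against 572 CPM in transitional B-like cells.

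Histone genes were among those farthest apart in erythroid-like cells, with Hist1h2ap at 1218 against 74.7 CPM, 16.3-fold (13.9 to 19.2), and Hist1h3e at 259 against 132 CPM. Hist1h2ap was at 195 against 10.3 CPM in cDC1-like cells, 18.9-fold (11.9 to 32.2). Histone messages of this kind lack a poly-A tail as a rule, and their copies are nearly identical, so their reads are uncertain. The receptor chain gene Ramp1 was lower in erythroid-like cells, at 26.4 against 61.3 CPM, and the beta globin gene Hbb-bt was at 501 against 958 CPM. The 26 mitotic and 24 S phase genes measured there had medians of 0.10 and 0.05. Macrophage-like cells had more Lyz2, the lysozyme of myeloid cells, at 1743 against 218 CPM, 8.002-fold (6.16 to 10.5). Lyz2 was found in 26.3% of live and 16.5% of apoptotic macrophage-like cells, so a minority of the cells carry its ratio. Macrophage-like cells also had more of the redox gene Txn1, at 1068 against 472 CPM. They had less Itgb1 and Ets1, at 199.9 against 351 and 187 against 336 CPM. Haemoglobin genes were at 1655 against 69.6 (Hbb-bs) and 1043 against 21.2 CPM (Hba-a1) in these cells, which eat red cells. The saline library had more of both than either, at 9493 and 6605 CPM, and the live and apoptotic allogeneic ones had 277 and 420 CPM of Hbb-bs. Summed erythroid markers were at 3842 against 178 CPM (25787 in the saline library), T cell markers at 481 against 1987 CPM and classical monocyte markers at 2467 against 1198 CPM in them, and the median depth was 1910 against 3078 UMIs. The part of RNA from other cells in the macrophage-like differences was not tested.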

How the data were processed

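Spleen cells of the 5 libraries were measured by droplet single-cell RNA sequencing (3' v3.1 chemistry, per the labels). The authors deposited raw UMI counts, 1 whole number for each barcode and each of 32285 genes. Reads had been counted by Cell Ranger 4.0 against mm10, according to the file headers and per the submitters' processing notes. The matrices of the live and apoptotic isogeneic libraries held every barcode of the kit, so cells were chosen here by at least 1000 UMIs, 500 genes and at most 10% mitochondrial UMIs. Total UMIs were 32641733 in the live and 24206160 in the apoptotic library. Scrublet in scanpy 1.11.5 called 5 of the live (0.136%) and 117 of the apoptotic cells (1.83%) doublets and these were removed, where rates of 2.95% and 5.10% had been given to the tool, so doublets remain.

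All 5 libraries were clustered together (2000 variable genes, 30 principal components, 15 neighbours, Leiden resolution 1, leidenalg 0.10.2) into 31 clusters. A cluster was named "like" a type when at least 3 markers and 25% of that type's markers had a log2 ratio of at least 1 to other cells and a UMI in 10% of its cells. UMIs were summed per class and library and scaled to CPM. The log2 ratio of CPM + 10 was taken for genes with at least 100 UMIs in both sums, and 1.5-fold was the limit of size. Folds are ratios of CPM with exact conditional Poisson intervals at 95%. PCR duplicates are collapsed by UMI, and intervals cover counting error only. The ratio and interval code was tested on simulated data. With 1 library per side no test was run.

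The genes named were the 12 highest and 12 lowest by the median over classes, up to 4 each way per class by the excess over other classes, and up to 4 members with the most UMIs per list past the fold. The first 2 sets hold no sex, haemoglobin, antigen receptor, mitochondrial or ribosomal protein genes, and the second no possible free RNA (under 0.1 of the CPM of the highest class). Genes given without being past the fold, such as H2-K1, Jun, Tap1 and Hspe1, were chosen as list members after their values were seen. The comparison, the 26 gene lists and the rules were chosen with earlier results of these data known, so none counts as independent support. Gene positions come from GENCODE vM21 and promoters from RefSeq (GRCm38.p6).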

Additional observations from a re-analysis of the deposited data

Results flagged for a closer look

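A few genes were past 1.5-fold higher in one class and past it lower in another. None of these differences between classes was tested, and each side is 1 library. Adam23, a membrane protein and marker of one cDC2 subset, had a log2 ratio of live to apoptotic of 1.05 in cells led by Cd209a and -0.74 in mature DC-like cells, where it was at 441 against 743 CPM. Egr3 was at 0.61 in cDC1-like and -0.71 in marginal zone B-like cells. Tspo was at 1.12 in mature DC-like cells and -0.59 in cells led by Cd209a, where it was at 284 against 434 CPM. Apoe was at 0.67 in cDC1-like and -0.59 in pDC-like cells. Ifi27l2a, an interferon-induced gene, was at 0.63 in mature DC-like cells and -0.81 in T cells led by Cxcr6.

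The others are genes with a very high level in some other cell of the spleen. Lyz2 was at 2.94 in macrophage-like and -0.61 in cDC1-like cells, with 125 against 197 CPM in the latter. Cst3, the cystatin C of DCs and macrophages, was at 0.92 in macrophage-like and -0.66 in pDC-like cells. S100a4 was at 2.21 in pDC-like cells, from 138 against 21.99 CPM, and -0.62 in cDC1-like cells. The part of RNA from other cells in these values was not tested.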

How the results depend on the processing

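No paired analysis was possible because each group has 1 library, labelled as replicate 1, and for the same reason no library could be left out. Of 314 alternative values of list medians, 313 kept their side of 1.5-fold, a label that does not follow the sign of smaller medians. Small medians could change sign, as those of the apoptotic cell uptake and LXR lists did with centring. The quality list rose to 0.91 with cells thinned to 1000 UMIs. Of 1131 values of genes named in a class, 1078 stayed past the fold, 53 fell short of it and 0 turned. Cell shares depended most on the filters. As ratios of live to apoptotic shares, the B-like share went from 0.710 to 1.102 with at least 2000 UMIs per cell, the T-like share from 0.691 to 0.568, the DC share from 1.77 to 1.09 and the erythroid-like share from 6.43 to 3.09. With at most 5% mitochondrial UMIs the first 3 were 0.753, 0.586 and 1.45. A minimum raised for the live library by the depth ratio, chosen after seeing the data, moved none of the 4.

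Counts of genes past 1.5-fold moved with the number of UMIs asked of a gene. How many genes are measured also changes with this minimum, with thinning and with filters of cells. The counts below can therefore not be read as shares of the measured genes. Thinned to 1000 UMIs per cell, they were 145 in CD4 T-like, 86 in CD8 T-like, 64 in T cells led by Cxcr6, 30 in regulatory T-like, 58 in NK-like, 105 in marginal zone B-like, 110 in transitional B-like, 39 in cDC1-like, 90 in cDC2-like, 27 in Cd209a-led, 40 in mature DC-like, 30 in pDC-like, 49 in macrophage-like and 81 in erythroid-like cells. With 20 UMIs per gene in place of 100 they were 773 in CD4 T-like, 833 in CD8 T-like, 1138 in T cells led by Cxcr6, 840 in regulatory T-like, 991 in NK-like, 400 in marginal zone B-like, 944 in transitional B-like, 319 in cDC1-like, 697 in cDC2-like, 942 in Cd209a-led, 968 in mature DC-like, 928 in pDC-like and 1141 in macrophage-like cells, as genes of few UMIs enter. A pseudocount of 1 CPM gave 428 in cDC1-like, 662 in erythroid-like, 646 in follicular B-like and 346 in marginal zone B-like cells, and the mean of single-cell CPM 471 in cDC1-like and 824 in erythroid-like cells. At most 5% mitochondrial UMIs gave 109 in marginal zone B-like and 130 in transitional B-like cells. The count shared by classes was 113 in the main setting, 49 thinned, 186 with the pseudocount of 1 and 173 with 20 UMIs. Without the shallow clusters, also chosen after seeing the data, macrophage-like and erythroid-like cells gave no value. At resolution 2 and with doublets kept, a cluster led by Cd209a was again found. It was named cDC2-like there, so the Cd209a-led class gave no value of its own in these settings.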

Other observations

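Lists that the comparison above did not take up gave these medians of class medians. Genes of p53 and cell death were at 0.23 over 12 classes, with 5 of 95 values higher (5.26%) and 3 lower, beside 5.18% and 2.76% of all genes in the same classes. Among them Pmaip1 (Noxa), a trigger of mitochondrial cell death, was at 237 against 134 CPM in cells led by Cd209a, and the survival gene Bcl2 at 213 against 330.4 CPM in CD4 T-like cells. Glycolysis was at -0.07 over 13 classes, with 0 of 135 values higher and 4 lower (2.96%), beside 5.08% and 2.81%, among them Mif, a cytokine and tautomerase, at 243 against 404 CPM in CD8 T-like cells. Lysosome and cathepsin genes were at -0.03 over 14 classes, with 6 of 210 higher (2.86%) and 3 lower, beside 5.33% and 3.29%. Lymphocyte activation and effector genes were at 0.27 over 11 classes, with 6 of 53 higher (11.3%) and 2 lower, beside 5.46% and 3.72%. The early activation marker gene Cd69 was at 267 against 148 CPM in T cells led by Cxcr6 and at 122 against 65.98 CPM in pDC-like cells, while Nkg7, a granule protein of killer cells, was at 617 against 1031 CPM in the former. B cell activation and germinal centre genes were at -0.13 over 12 classes, with 8 of 81 higher (9.88%) and 11 lower (13.6%), beside 4.91% and 2.56%. Inflammatory cytokines and chemokines could be measured in 3 classes only, with a median of -0.30.

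The quality list, which holds rRNA-linked and nuclear RNAs, was at 0.22 over 15 classes, with 66 of 161 values higher (41.0%) and 5 lower, beside 5.41% and 3.59% of all genes. Malat1, a nuclear RNA, was lower in mature DC-like cells, at 67344 against 112471 CPM. Follicular B-like cells thinned to 1000 UMIs had at least 3 UMIs of cell cycle genes in 8.66% of cells of the live and 4.45% of the apoptotic library, and CD8 T-like cells in 10.5% and 7.28%.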
